A study of Mus musculus with 8 samples.

Results

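The oxidative phosphorylation genes of the nucleus were followed in bone marrow B cells of ovariectomized (OVX) and sham-operated (Sham) mice. Members were the rows of the count table whose Ensembl identifier belongs to a mouse symbol that begins with Nduf, Uqcr, Cox4 to Cox8 or Atp5, or that is Sdha, Sdhb, Sdhc, Sdhd or Cyc1, with symbols containing -ps left out. The rule found 99 of the 54532 genes in the table. They comprised 39 subunits of complex I, 4 of complex II, 9 of complex III, 21 of complex IV and 17 of complex V, together with 8 complex I assembly factors (Ndufaf1 to Ndufaf8) and Atp5s, a factor linked to complex V. The symbols are older names in part, so that Atp5a1, Atp5b, Atp5c1 and Atp5k are the genes now called Atp5f1a, Atp5f1b, Atp5f1c and Atp5me.

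The study examined HIF-1α, the oxygen-regulated transcription factor, in B cells during bone loss from estrogen deficiency. RNA of bone marrow B cells was sequenced in 3 libraries from OVX mice, which lose their ovarian estrogen, and 3 from Sham mice, the surgical controls. The cells of both groups were taken from dissected bones by magnetic sorting. The study's methods give an age at surgery of 8 weeks for female mice of its other OVX experiments. For the RNA-seq samples neither the labels nor the methods give age, strain or whether each library was one animal, so p-values measure the spread between libraries, which may be technical. The sorted population holds pro-B to mature B cells together, and in such bulk RNA fewer cells of a type and less RNA per cell cannot be told apart.

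Oxidative phosphorylation takes place in the inner mitochondrial membrane. Complexes I and II pass electrons from NADH and succinate to ubiquinone, complex III passes them on to cytochrome c, complex IV hands them to oxygen, and complex V, the ATP synthase, uses the proton gradient that complexes I, III and IV build. A minority of the subunits is encoded by mitochondrial DNA and the rest by nuclear genes, complex II wholly so, and B cell precursors depend on respiration while they divide and mature. HIF-1α is known to lower respiration in hypoxia through targets such as Pdk1, which restrains pyruvate entry, and to exchange Cox4i1 for Cox4i2 in complex IV.

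The libraries held between 23838775 and 33136701 reads assigned to genes. Levels are given in CPM, the reads of a gene relative to all reads of its library after TMM scaling in edgeR, and a log2 fold change is OVX against Sham from edgeR's quasi-likelihood fit. All 12 listed B cell genes were detected in every library, with a summed level of 10548 to 11164 CPM in Sham and 10759 to 12089 CPM in OVX. RNA of other marrow cells was present too. All 18 listed neutrophil genes were detected in every library, and their sum ran from 2676 to 10197 CPM in Sham, with the highest value in replicate 3, and from 1183 to 4303 CPM in OVX, with the highest value in replicate 1.

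Of the 99 members, 90 had enough reads to be tested among 15305 genes. No read was found in any library for 5 rows, which were Ndufa11b, Ndufs6b, Cox7b2, the testis isoform gene Cox8c and a second identifier named Atp5o. The other untested members were near 0 as well, with 0 to 3 reads per library for Ndufb4c, 0 to 5 for Cox6c2, 0 to 1 for the muscle isoform gene Cox8b, and a single read in 1 library, OVX replicate 2, for Ndufa4l2, the HIF-induced relative of Ndufa4. A count of 0 allows up to 0.0905 to 0.126 CPM in these libraries (3 reads, counting error only).

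No member passed the test, and no other gene did (0.0% of all genes, lowest adjusted p = 0.811 from edgeR's quasi-likelihood fit after Benjamini-Hochberg correction). DESeq2 and limma-voom called no member either. An unadjusted p-value under 0.05 was reached by 5 of the 90 members (5.56%), against 574 of the 15305 genes (3.75%). Of these 5, 4 were higher in OVX (1.47% of all genes) and 1 was lower (2.28% of all genes). DESeq2 and limma-voom each also put 4 members on the higher side and 1 on the lower side at that level.

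The fold changes were small and mostly of one sign. The level was higher in OVX for 73 of the 90 members and lower for 17, whereas 48.2% of all genes tested had a log2 fold change above 0. The median log2 fold change was 0.09 over the members and -0.0081 over all genes, and the members ranged from -0.41 for Cox6b2 to 0.43 for Atp5k. The summed level of the members was 8778, 7112 and 7766 CPM in Sham replicates 1, 2 and 3 and 7967, 8791 and 8456 CPM in OVX replicates 1, 2 and 3. OVX libraries thus lay within the range of the Sham libraries or just above it. The means were 8405 ± 414 CPM in OVX and 7886 ± 839 CPM in Sham (SD, n = 3 per group), 6.58% apart, which was less than the spread among Sham libraries.

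**Figure D1:**
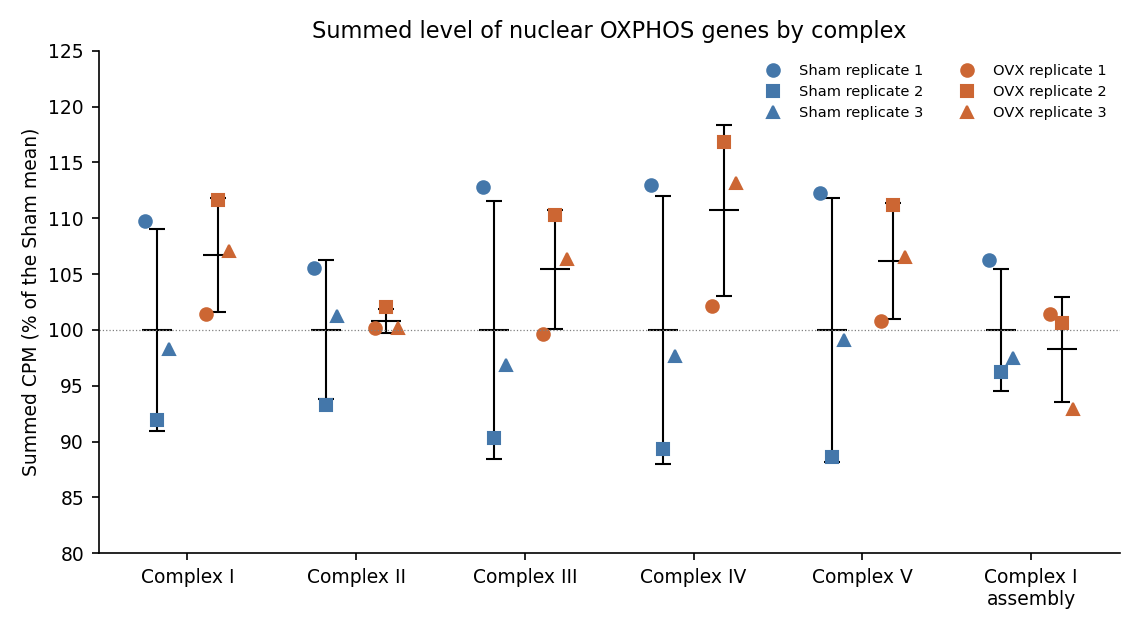
Summed CPM of the members of each complex in every library, as a percent of the Sham mean, on an axis that starts at 80%. Points are libraries (3 Sham, 3 OVX), and the bars give the mean and SD of each group. In complexes I, III, IV and V, Sham replicate 2 lies lowest, and Sham replicate 1 lies within the range of the OVX libraries or above it.

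The 5 members at an unadjusted p-value under 0.05 are accessory subunits or an assembly factor, and none carries a catalytic site. Promoter sequence was looked up for them because many respiratory genes are known targets of the factor NRF1. Of the 5, Atp5k, Ndufa11 and Ndufaf4 had a window in the RefSeq promoter table (GRCm38.p6), and each held the NRF1 core CGCATGCG, a palindrome that reads the same on both strands. The 150 bases up to the start site are shown 5′ to 3′ on the strand of the gene, with that core in capitals. They lie at chr5:108434400-108434549 (minus strand) for Atp5k, at chr17:56717612-56717761 (plus strand) for Ndufa11 and at chr4:24897933-24898082 (plus strand) for Ndufaf4.
Atp5k: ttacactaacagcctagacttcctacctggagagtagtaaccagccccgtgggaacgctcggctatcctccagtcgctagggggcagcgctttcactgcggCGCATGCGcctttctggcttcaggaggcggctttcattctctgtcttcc
Ndufa11: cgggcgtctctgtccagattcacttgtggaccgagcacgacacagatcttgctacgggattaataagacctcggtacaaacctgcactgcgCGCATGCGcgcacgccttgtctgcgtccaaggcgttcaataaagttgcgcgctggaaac
Ndufaf4: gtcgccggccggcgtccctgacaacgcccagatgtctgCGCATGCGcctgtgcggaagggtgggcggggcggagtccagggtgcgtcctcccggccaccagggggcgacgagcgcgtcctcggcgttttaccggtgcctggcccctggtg
The core ended 41, 51 and 104 bases before the start site of Atp5k, Ndufa11 and Ndufaf4. The first pair was higher in OVX and Ndufaf4 was lower, so genes with the same letters in this window had opposite signs. Among the members 11 of 81 windows held the core (13.6%), against 1.87% of all 32851 windows of that length. The other genes with it were Ndufa8, Ndufaf5, Uqcr11, Uqcrc1, Cox6a1, Atp5g2, Atp5j and Atp5l. A match of letters is a description of the window and not of binding.

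Atp5k encodes a small membrane subunit of the ATP synthase that takes part in dimer formation (ENSMUSG00000050856, chromosome 5, 108433246 to 108434399). Its level was 24.4, 22.1 and 23.5 CPM in Sham replicates 1 to 3 and 24.8, 34.4 and 34.8 CPM in OVX replicates 1 to 3. OVX replicates 2 and 3 stood well apart, while OVX replicate 1 lay just above the highest Sham library. The log2 fold change was 0.43 (SE 0.14, unadjusted p = 0.0202, adjusted p = 0.811, edgeR's quasi-likelihood test).

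Ndufa11 encodes an accessory membrane subunit of complex I (ENSMUSG00000002379, chromosome 17, 56717762 to 56724248). It was at 34.4, 28.2 and 33.2 CPM in Sham and 35.7, 41.3 and 40.5 CPM in OVX. Its lowest OVX library was still above its highest Sham library, though by little, and the log2 fold change was 0.30 (SE 0.11, unadjusted p = 0.0275, adjusted p = 0.811, edgeR). Ndufb9, another accessory membrane subunit of complex I (ENSMUSG00000022354, chromosome 15, 58933801 to 58939516), was at 19.2, 15.6 and 19.8 CPM in Sham and 19.7, 26.0 and 23.7 CPM in OVX. Here OVX replicate 1 lay below Sham replicate 3, so the groups overlapped (log2 fold change 0.35, SE 0.15, unadjusted p = 0.0493, edgeR).

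Cox6c encodes a small accessory subunit of complex IV (ENSMUSG00000014313, chromosome 15, 35931976 to 35938246). It was at 105, 95.8 and 98.2 CPM in Sham and 113, 117 and 116 CPM in OVX, so the OVX libraries were tightly grouped above all Sham libraries. Its log2 fold change was 0.21 (SE 0.06), with the lowest p-value of the members (unadjusted p = 0.0126, adjusted p = 0.811, edgeR's quasi-likelihood test). Ndufaf4, a complex I assembly factor (ENSMUSG00000028261, chromosome 4, 24898083 to 24905001), was the one on the lower side. It was at 18, 21.7 and 17.4 CPM in Sham and 15.8, 15.3 and 15.1 CPM in OVX, with every OVX library below every Sham library (log2 fold change -0.30, SE 0.12, unadjusted p = 0.0417, edgeR). Ndufaf4 overlaps the RefSeq gene Gm46848, and whether reads were counted by strand was not stated, so the share of each in its count is uncertain.

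Groups did not overlap with OVX higher in 3 members, Atp5k, Ndufa11 and Cox6c, which is 3.33% of the members, and the same held for 4.33% of all genes. Ndufaf4 was the single member with OVX below Sham (1.11%), against 4.12% of all genes. Both shares of the members were below the background. For each of these 4 genes a two-sided exact permutation test gave p = 0.1, the smallest that 3 libraries against 3 allow.

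**Figure D2:**
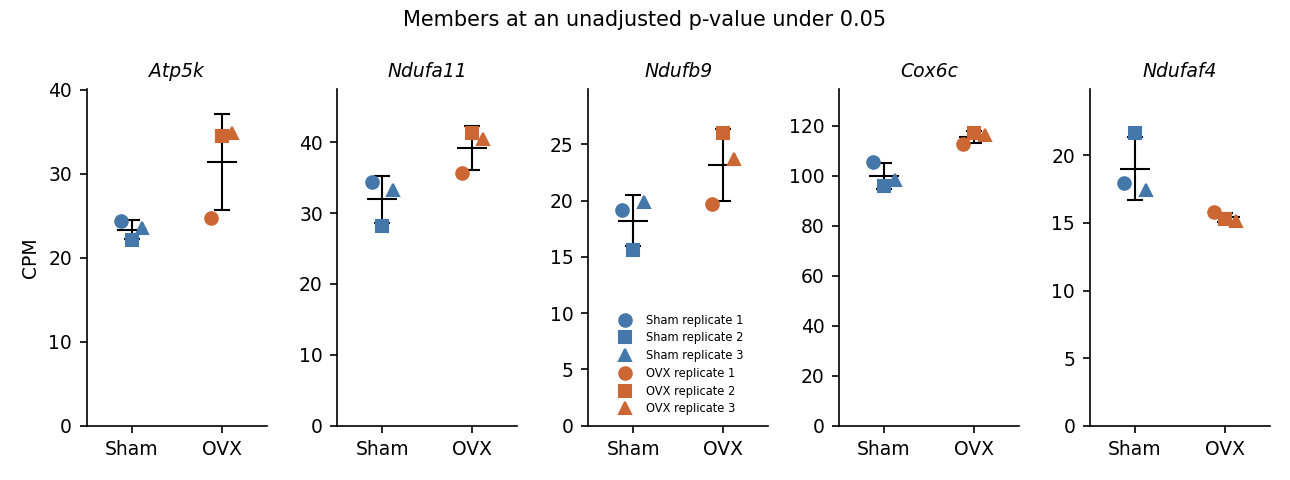
CPM (axis from 0) of the 5 members with an unadjusted p-value under 0.05, with 1 panel per gene, points for libraries, and the mean and SD of 3 libraries per group. In Atp5k, OVX replicates 2 and 3 (34.4 and 34.8 CPM) lie apart from OVX replicate 1 (24.8 CPM), while in Cox6c the OVX libraries lie between 113 and 117 CPM.

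Complex I is the largest assembly, and 36 of its 39 genes were tested. The level was higher in OVX for 33 and lower for 3, and the median log2 fold change was 0.10. The 7 core subunits, which carry the flavin and the iron-sulfur clusters, had a median of 0.09 and ranged from -0.03 to 0.12. Ndufv1, the subunit that takes the electrons of NADH, was at 91.7, 71.1 and 80 CPM in Sham and 79.1, 81.1 and 78.0 CPM in OVX (log2 fold change -0.03, SE 0.10). Here Sham replicates 1 and 2 were the highest and lowest of the 6 libraries, with all OVX libraries between them.

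The log2 fold changes of the other core genes were above 0, the highest at 0.12. Ndufs1, a subunit with several iron-sulfur clusters, had a log2 fold change of 0.02 (SE 0.07). Ndufs7, which holds the last cluster before ubiquinone, was at 0.05 (SE 0.09), and Ndufs3, of the matrix arm, at 0.09 (SE 0.07). Ndufs8 and Ndufv2, both cluster-bearing subunits, were at 0.12 (SE 0.11 and 0.08). The 29 tested accessory subunits had a median of 0.10 and reached 0.35 in Ndufb9. Ndufab1, the mitochondrial acyl carrier protein, which also serves lipoate synthesis, was at 51.3, 53.3 and 49.3 CPM in Sham and 47.2, 50.5 and 52.0 CPM in OVX (-0.04, SE 0.07). Ndufs4, a late-joining accessory subunit, had a log2 fold change of 0.16 (SE 0.11), and Ndufa9, which holds NADPH near the quinone site, 0.09 (SE 0.09).

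The 8 complex I assembly factors differed in sign from the subunits. Of these, 6 were lower in OVX and 2 higher. The median log2 fold change was -0.06, and it stayed below 0 in all 15 alternative settings, between -0.12 and -0.0065. Their summed level was 126, 114 and 115 CPM in Sham and 120, 119 and 110 CPM in OVX, a difference of -1.72% that lay within the Sham range except for OVX replicate 3. Ndufaf3, which acts early in assembly of the matrix arm, had the highest value (0.15, SE 0.15) and Ndufaf4 the lowest. A list of 9 complex I assembly factors with other names (such as Acad9, Ecsit and Timmdc1) had a median of 0.03, with 5 higher and 4 lower, close to 0 as well. No test of the difference between subunits and assembly factors was made.

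Complex II, succinate dehydrogenase, differed least. Sdha, the flavoprotein that oxidizes succinate, was at 268, 265 and 275 CPM in Sham and 272, 270 and 260 CPM in OVX, a log2 fold change of -0.01 with an SE of 0.06. Sdhb, which carries the iron-sulfur clusters, had a log2 fold change of 0.05 (SE 0.08). The membrane anchors Sdhc and Sdhd were at -0.01 (SE 0.10) and 0.04 (SE 0.12). The median of the 4 genes was 0.02, and it was -0.04 with scaling on B cell genes and -0.0015 with library size only. Sdhd ranged from 82.1 to 114 CPM among the Sham libraries alone, and its OVX libraries, from 95.1 to 105 CPM, lay inside that range.

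All 9 genes of complex III were tested. In OVX 8 had a higher level and 1 a lower one, and the median log2 fold change was 0.09. Cyc1, cytochrome c1, was at 136, 120 and 126 CPM in Sham and 133, 139 and 135 CPM in OVX (0.09, SE 0.07). Uqcrfs1, the Rieske iron-sulfur protein, had a log2 fold change of 0.08 (SE 0.09). Uqcrc1 and Uqcrc2, the large core proteins of the matrix side, were at 0.03 (SE 0.08) and -0.01 (SE 0.10), and Uqcrb, which lies beside the quinone site, at 0.02 (SE 0.09). Uqcr11, the smallest subunit, had the highest value of the complex, 0.19 (SE 0.10), and was the single complex III gene with OVX replicates 2 and 3 above the other 4 libraries.

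Complex IV had the widest range. Of 16 tested genes, 12 had a higher level in OVX and 4 a lower one (median log2 fold change 0.11). The summed level was 1693, 1339 and 1464 CPM in Sham and 1531, 1751 and 1696 CPM in OVX, a difference of 10.7% between means of 1659 ± 115 and 1499 ± 180 CPM (SD, n = 3 per group). OVX replicate 1 lay below Sham replicate 1, so the groups overlapped. Cox7a2l, a factor that links complexes III and IV into supercomplexes, was at 297, 206 and 225 CPM in Sham and 255, 311 and 300 CPM in OVX (0.25, SE 0.15). Cox7a2, the broadly expressed isoform of its family, was at 73.0, 46.3 and 58.7 CPM in Sham and 61.7, 78.3 and 74.4 CPM in OVX (0.27, SE 0.17). In both, OVX replicates 2 and 3 stood above the other 4 libraries, and Sham replicate 2 was lowest.

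Complex IV subunits come in isoforms, and these spanned its range. The broadly expressed Cox4i1 was at 287, 217 and 240 CPM in Sham and 244, 280 and 276 CPM in OVX (0.11, SE 0.12). Its HIF-linked partner Cox4i2 had 21, 8 and 8 reads in Sham and 8, 24 and 22 reads in OVX. The 3 libraries with over 20 reads came from both groups, so the log2 fold change of 0.33 had an SE of 0.57. Cox4i2 overlaps the RefSeq genes Bcl2l1 and Gm32057, and whether reads were counted by strand was not stated, so the share of each in its count is uncertain. Cox6b2, the testis isoform, was at 4.39, 4.65 and 8.25 CPM in Sham and 5.42, 3.88 and 3.72 CPM in OVX. Its log2 fold change of -0.41 (SE 0.30) was -0.07 without Sham replicate 3, the library with the highest neutrophil sum. Cox7a1 and Cox6a2, the heart and muscle isoforms, were at -0.29 (SE 0.32, 20 to 36 reads per library) and -0.06 (SE 0.26).

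The remaining broadly expressed genes of complex IV were close together. Cox6b1, on the cytochrome c side, was at 0.20 (SE 0.10), Cox8a at 0.17 (SE 0.11), Ndufa4, once placed in complex I, at 0.14 (SE 0.08) and Cox7c at 0.12 (SE 0.08). Cox5b and Cox6a1 were both at 0.10 (SE 0.09). Cox7b was at 0.04 (SE 0.08) and Cox5a at -0.04 (SE 0.07). None of these genes had an unadjusted p-value under 0.05.

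In complex V, 15 of 16 tested genes were higher in OVX, with a median of 0.09. Atp5b, the catalytic beta subunit, was at 905, 707 and 828 CPM in Sham and 824, 880 and 829 CPM in OVX (0.05, SE 0.10). Atp5a1, the alpha subunit, was at 889, 688 and 773 CPM in Sham and 792, 872 and 832 CPM in OVX (0.09, SE 0.11). For both, Sham replicates 1 and 2 marked the highest and lowest of the 6 values. Atp5c1, the rotating gamma subunit, was at 0.05 (SE 0.11).

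The 5 genes of F1, the catalytic head with its central stalk, had a median of 0.09, and the 11 other tested genes a median of 0.10 with a range from -0.06 to 0.43. The 3 genes of the c subunit, which encode the same mature protein of the rotor ring, were at -0.06 (SE 0.08) for Atp5g1, 0.01 (SE 0.08) for Atp5g2 and 0.10 (SE 0.07) for Atp5g3. Atp5mpl, a small proteolipid of the synthase, was at 59.1, 45.3 and 51.4 CPM in Sham and 51.2, 73.9 and 67.7 CPM in OVX (0.31, SE 0.15). Atp5o, part of the peripheral stalk, was at 0.24 (SE 0.12), as was Atp5e, the epsilon subunit of the central stalk (SE 0.15). Atp5mpl repeated the pattern of Atp5k, with OVX replicates 2 and 3 apart from OVX replicate 1. Atp5s had a log2 fold change of 0.01 (SE 0.17).

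**Figure D3:**
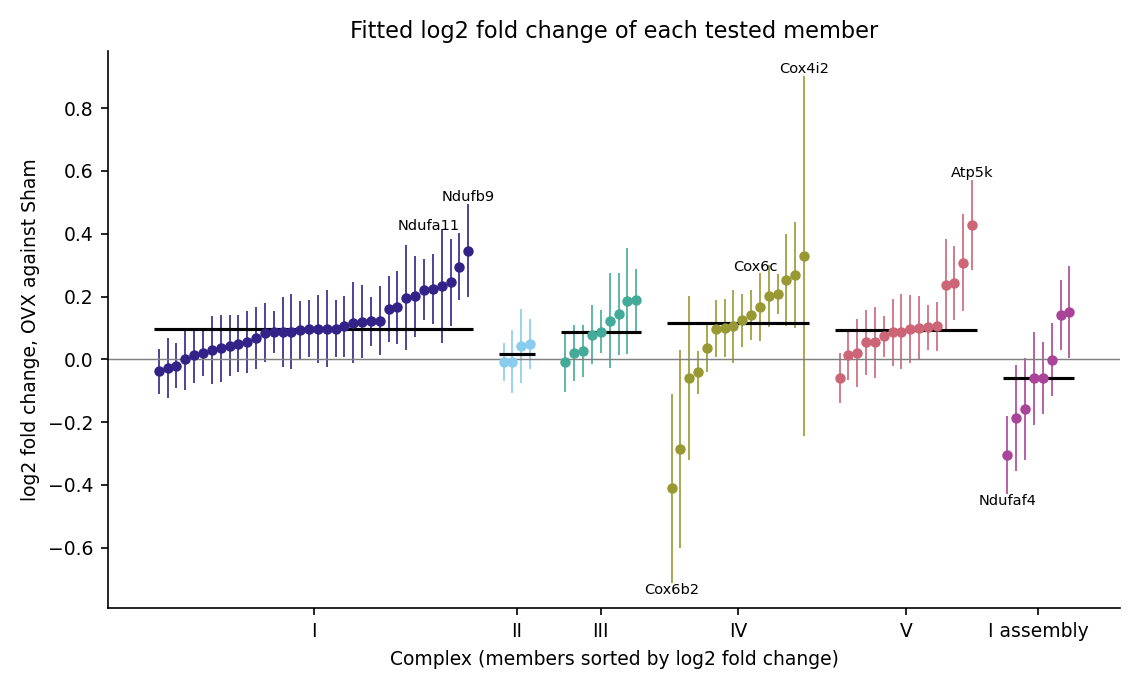
Fitted log2 fold change (OVX against Sham) of 89 of the 90 tested members, all except Atp5s, sorted within each complex. Each point is 1 gene, the bars are its SE, and the black line is the median of the complex. Complex II genes lie within 0.05 of 0, and the medians of complexes I, III, IV and V lie between 0.09 and 0.11.

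Libraries of the same group differed from each other in a shared way across members. Of the 90 members, 66 (73.3%) had their lowest level of all 6 libraries in Sham replicate 2, against 28.8% of all genes, and 36 (40%) had their highest in Sham replicate 1, against 14.3% of all genes. In addition, 25 members (27.8%) were higher in OVX replicates 2 and 3 than in each of the other 4 libraries, against 9.62% of all genes. Those were 13 genes of complex I, 6 of complex IV, 5 of complex V and 1 of complex III. No complex II gene and no assembly factor was among them. OVX replicate 1 lay close to the mean of all libraries for the members, with a median deviation of -0.03 on the log2 scale, compared with -0.18 in Sham replicate 2 and 0.10 in both Sham replicate 1 and OVX replicate 2.

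**Figure D4:**
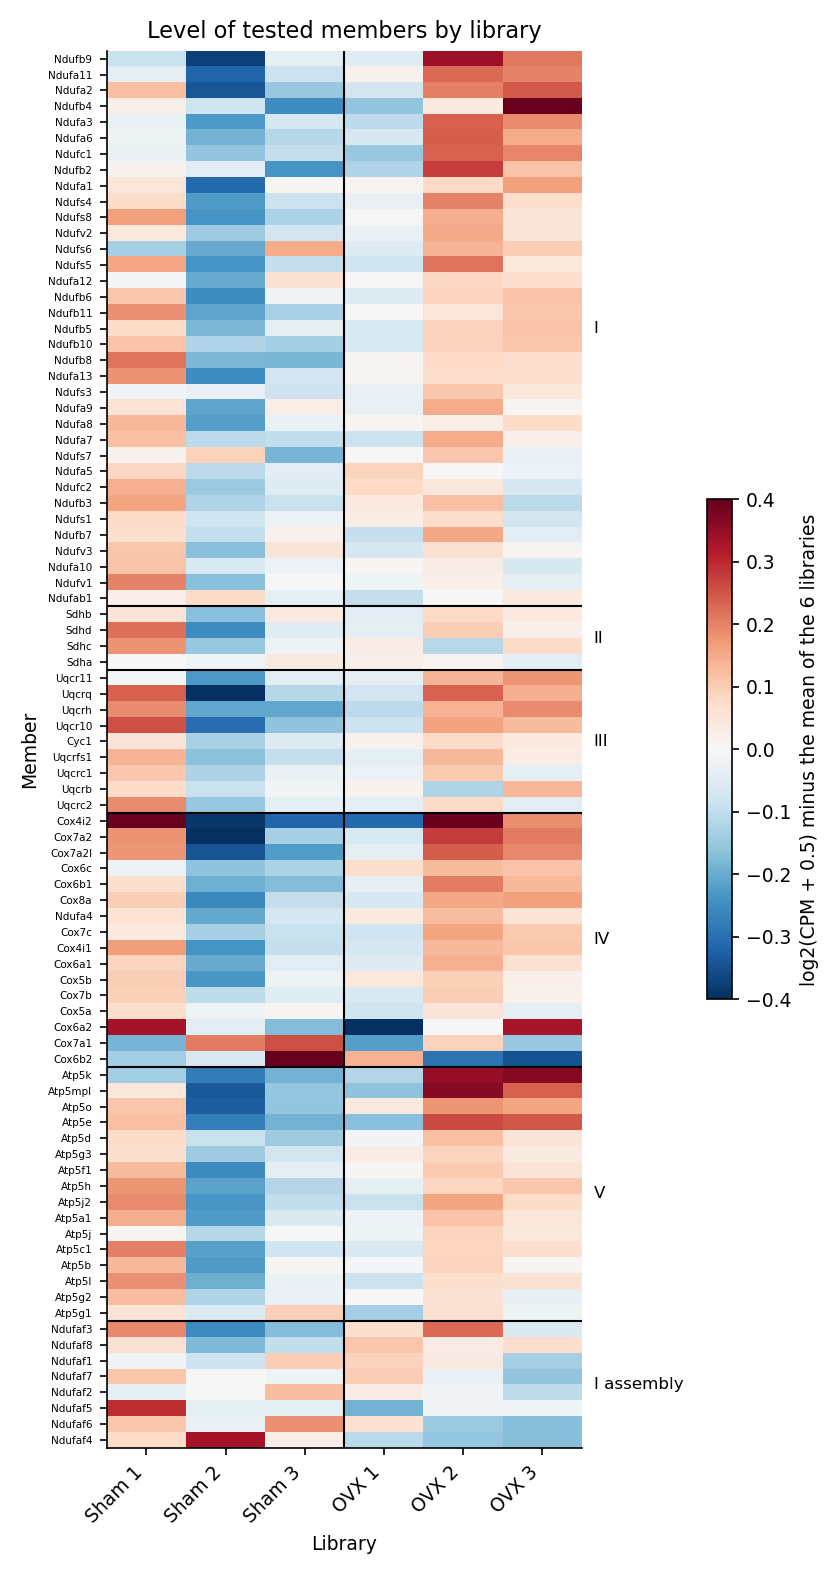
Level of the tested members, with Atp5s and 1 further gene not drawn, in the 6 libraries, as log2(CPM + 0.5) minus the mean of that gene over the libraries, with colours limited to -0.4 and 0.4. The column of Sham replicate 2 is the lowest one for 66 of all 90 tested members, and the median over members is above 0 in Sham replicate 1 (0.10) and in OVX replicates 2 and 3 (0.10 and 0.05).

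The size of the shift depended on single libraries. Without Sham replicate 2 the median log2 fold change of the members was 0.02, with 53 above 0, and without Sham replicate 1 it was 0.17, with 77 above 0. Without Sham replicate 1, 27 members were higher in OVX at an unadjusted p-value under 0.05, where 1254 of 16051 genes were higher at that level, and the lowest adjusted p of a member was 0.273 (edgeR). Without OVX replicate 1 that count was 10 members, where 297 of 15977 genes were higher, and without Sham replicate 2 it was 1 member, where 123 of 15609 genes were higher. The median of complex II was -0.05 without Sham replicate 2, and those of complexes I, III, IV and V were between 0.01 and 0.03. Scaling on the 12 B cell genes moved the median of all genes to -0.07 and that of the members to 0.03, with 55 members above 0. A change of scaling shifts all genes nearly alike, so the distance between members and all genes, 0.10 under both scalings, could hardly respond to it. That distance was 0.02 without Sham replicate 2, 0.18 without Sham replicate 1 and 0.05 with the share of neutrophil reads as a covariate.

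**Figure D5:**
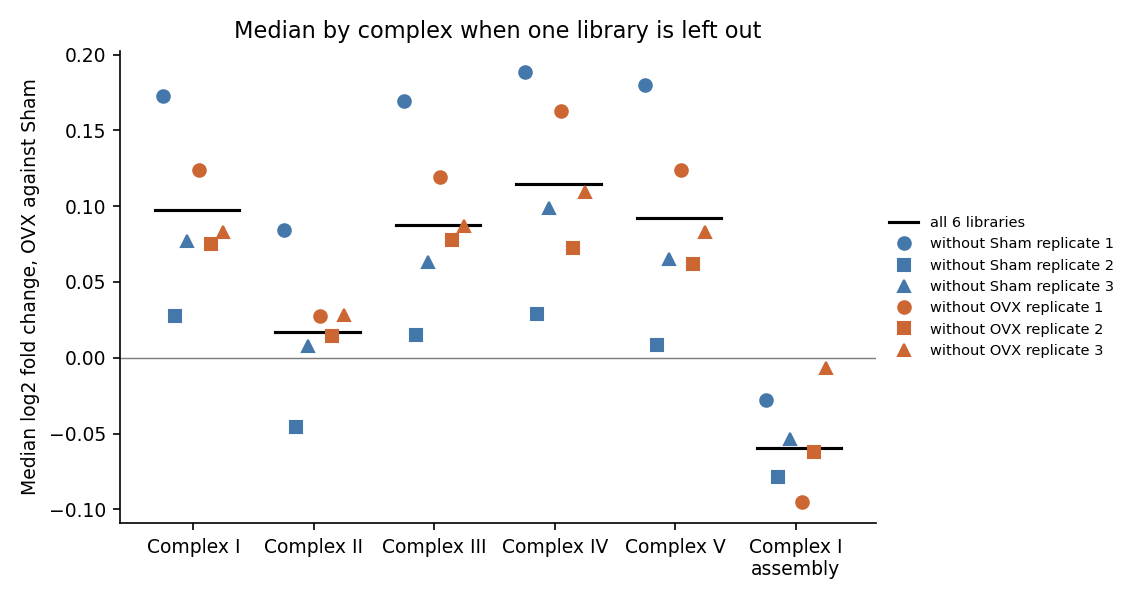
Median log2 fold change of each complex (OVX against Sham) with all 6 libraries (black line) and with each library left out in turn (points). The points without Sham replicate 2 lie lowest in complexes I to V, from -0.05 to 0.03, and those without Sham replicate 1 lie highest, from 0.08 to 0.19.

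Markers of cell division and of other cells also differed between libraries, in patterns that varied from list to list. All 12 listed cell cycle genes, Mki67 among them, were lowest in Sham replicate 2. All 12 had a log2 fold change above 0 (48.2% of all genes), with a median of 0.13 and none at an unadjusted p-value under 0.05. Their sum was 3700, 2417 and 3311 CPM in Sham and 3780, 3368 and 3153 CPM in OVX. It was highest in OVX replicate 1, which was not a high library for the members. The 18 neutrophil genes were all lower in OVX replicates 2 and 3 than in the other 4 libraries (9.93% of all genes), and their median log2 fold change was -1.27. When the share of neutrophil reads entered the fit as a covariate, the median of the members was 0.04, with 64 above 0. In that fit 186 of 15305 genes and no member had an unadjusted p-value under 0.05 (edgeR). The monocyte and macrophage list had a median of -0.50 over 16 genes, 15 of them lower, and the erythroid list -0.86 over 11 genes, all lower. The plasma cell list had a median of -0.28 over 8 genes, 5 of them lower. The monocyte list summed to 1351, 2601 and 1930 CPM in Sham and 1188, 766 and 1935 CPM in OVX. The erythroid list summed to 242, 497 and 357 CPM in Sham and 283, 151 and 303 CPM in OVX. The plasma cell list summed to 1075, 1424 and 1398 CPM in Sham and 1195, 1129 and 956 CPM in OVX. Each of these sums was highest in Sham replicate 2, whereas the neutrophil sum was highest in Sham replicate 3. No marker of these 4 lists that had a row in the table was at 0 in any library, and the part of cell division or of other cells in the members' values was not tested.

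Genes outside the pathway, chosen by Rpl or Rps symbols, shared some of the pattern. Most were abundant, but some had low levels, such as Rps3a3 at 0.56 to 1.56 CPM. Of 84 tested cytosolic ribosomal protein genes 73 were higher in OVX, with a median of 0.08, close to the 0.09 of the members. In 37 of them (44%) OVX replicates 2 and 3 were above the other 4 libraries. Unlike the members, 12 of the 84 (14.3%) were lowest in Sham replicate 2. The part of transcript length or RNA quality was not tested.

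The mitochondrially encoded subunits did not follow their nuclear partners library by library. The 13 genes had a median of 0.10, with 7 higher and 6 lower, and a sum of 12965, 14526 and 11606 CPM in Sham and 14546, 11916 and 12098 CPM in OVX. Sham replicate 2, the lowest library for the nuclear members, was next to the highest here. Much of the sum was mt-Co1, at 6746, 7138 and 5809 CPM in Sham and 7272, 5892 and 5886 CPM in OVX. One gene, mt-Co3, a membrane subunit of complex IV, was at an unadjusted p-value under 0.05 (0.25, SE 0.10, edgeR). It was at 16.8, 17.0 and 16.1 CPM in Sham and 20.4, 19.5 and 19.6 CPM in OVX. These were 397 to 646 reads per library, and mt-Atp8 had 14 to 28. The counting tool was not given, so how completely reads of such genes were counted is not known.

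Other genes of the pathway gave no call. Of the 16 genes of the tricarboxylic acid cycle, the level in OVX was above that in Sham for 12 and below it for 4, with a median of 0.02 and none at an unadjusted p-value under 0.05, and 12 of them (75%) were lowest in Sham replicate 2. The 19 genes of electron carriers, ubiquinone synthesis and ADP exchange had a median of -0.0081, with 8 higher and 11 lower. Among 31 assembly factors of complexes II to V the median was 0.02, and Pet100, which helps to build complex IV, was on the higher side (0.30, SE 0.12, unadjusted p = 0.042) and Lrpprc, which stabilizes mitochondrial mRNA, on the lower (-0.16, SE 0.06, unadjusted p = 0.026, edgeR for both). Of 14 regulators of mitochondrial biogenesis, 9 were higher, with a median of 0.06. Nrf1, which encodes the factor whose core was counted above, was at 95.2, 87.9 and 90.5 CPM in Sham and 97.6, 104 and 105 CPM in OVX (0.16, SE 0.06, unadjusted p = 0.036, adjusted p = 0.811, edgeR). It was the 1 gene of the 14 with every OVX library above every Sham library (7.14%, against 4.33% of all genes). Groups did not overlap for Pet100 and Lrpprc either, 1 gene in each direction (3.23% each, against 4.33% and 4.12% of all genes).

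Genes that link HIF-1α to respiration were not called either. Of 10 tested, 6 were higher and 4 lower, with a median of 0.04 and none at an unadjusted p-value under 0.05. Hif1a itself was at 99.2 ± 1.75 CPM in Sham and 101 ± 2.51 CPM in OVX (SD, n = 3 per group; log2 fold change 0.03, SE 0.06). Pdk1 was at 39.0, 55.0 and 39.4 CPM in Sham and 39.1, 34.0 and 39.1 CPM in OVX, with its highest value in Sham replicate 2 and its lowest in OVX replicate 2 (-0.25, SE 0.15). Lonp1, the protease that degrades Cox4i1, was at -0.10 (SE 0.07) and Ldha, which makes lactate, at -0.10 (SE 0.06). Ldha was at 309, 288 and 308 CPM in Sham and 283, 280 and 279 CPM in OVX. It was the 1 gene of the 10 with every OVX library below every Sham library (4.12% of all genes), and none had the reverse. The mitophagy receptors Bnip3 and Bnip3l were at -0.06 (SE 0.19) and 0.14 (SE 0.10). Higd1a, which binds complex IV, was at 0.19 (SE 0.12), Iscu, the scaffold of iron-sulfur clusters, at 0.14 (SE 0.08), and Mxi1, an antagonist of Myc, at 0.06 (SE 0.16).

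Promoter letters were compared over all members with a window. In 81 windows of 76 genes, from 250 bases before to 50 after the start, the YY1 core AAGATGGCG was found in 9.88%, against 1.4% of all windows. It lay in Ndufa9, Ndufc1, Ndufs4, Ndufs6, Ndufs7, Ndufaf8, Atp5j and Atp5j2. The ETS core CCGGAAGT was in 6.17%, against 3.89%, and the HIF motif letters ACGTG and GCGTG were in 24.7% and 55.6%, against 19.6% and 32.4%. The E-box CACGTG, which contains ACGTG, was in 8.64%, against 7.15%. All motifs were searched on both strands.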

How the data were processed

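RNA-seq of bone marrow B cells was used from 3 OVX and 3 Sham libraries, grouped by their sample titles. The values the authors deposited are unnormalized read counts for each Ensembl gene. The submitters' processing notes name CASAVA, Bowtie 0.12.2 and mm10, while the counting tool, annotation and strand setting are not given in the sources used here. The labels name Trizol and the TruSeq kit for the RNA. The ChIP library for HIF-1α and the input library were not analysed here. Symbols were found for 54409 of 54532 identifiers.

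Members and gene lists were chosen with earlier results of these data known, so counts over them are descriptions. The counts were fitted with edgeR 4.0.16 in R 4.3.3 (filterByExpr by group, TMM factors, quasi-likelihood test, Benjamini-Hochberg adjustment over 15305 genes, called at an adjusted p-value under 0.05 with no fold threshold). For single genes, log2(CPM + 0.5) was compared with an exact permutation test (two-sided). Genes named in the text are the members with an unadjusted p-value under 0.05 or without overlap of the groups, the highest and lowest fold change and the highest level in each complex, core subunits and isoforms, the HIF-linked genes, and genes of the metabolic lists with an unadjusted p-value under 0.05. Others were named after their values were seen (Atp5mpl, Atp5o and Atp5e for their fold changes or library pattern, and the genes that hold a printed motif). Ebf1, the ribosomal protein genes, mt-Co1, mt-Atp8, Usmg5, Dmac2 and Ndufb1-ps were also named outside these rules. Lists got counts and medians and no test. The test was tried on simulated counts.

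Depth was 23838775 to 33136701 reads per library, without molecular identifiers, so floors cover counting error only. No 2 libraries of a group were alike within sampling noise (chi-square per degree of freedom 16.5 to 58.4). Alternatives were DESeq2 1.42.0, limma-voom (limma 3.58.1), scaling by upper-quartile factors, by library size only or on B cell genes, other filters, a fold change of at least 1.6, the neutrophil share as covariate, the replicate number as a block, Ndufa4 counted with complex I, and each library left out in turn. Promoters and positions are from RefSeq (GRCm38.p6). Of the 98 members with a RefSeq position, 31 overlap another gene there, and 77 members had a promoter window. Gene lengths per transcript were not used, so levels are not compared between genes. Some items are not reported here.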

Additional observations from a re-analysis of the deposited data

How the results depend on the processing

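No gene and no member was called in any of the 15 alternatives for the test, scaling, filter, covariate, block or left-out library, nor with a fold change of at least 1.6. The medians of complexes I, III, IV and V and of all members stayed above 0, and that of the assembly factors stayed below 0. All moved by less than the spread between replicates. That spread was larger than the size of each of these medians (0.108 against 0.091 for all members), so a median at 0 would also have met this rule. Without Sham replicate 2 the median of all members was 0.02. Counts at an unadjusted p-value under 0.05 moved most. Over all genes there were 574, with 186 under the neutrophil covariate, 1269 without a filter, 206 under the replicate block, and 233 (without OVX replicate 2) to 2698 (without Sham replicate 1) with 1 library left out. The 4 members on the higher side became 1 with B cell scaling, 0 under the neutrophil covariate, 1 under the replicate block and 1 to 27 with 1 library left out. The 1 member on the lower side became 0 under the neutrophil covariate, without a filter and under the replicate block, and 0 to 1 with 1 library left out. Of the genes at that level, 39.2% were higher in OVX (225 against 349), compared with 15.7% under B cell scaling (81 against 435), 27% with DESeq2, 28.7% without a filter and 22.4% without OVX replicate 3. The replicate numbers gave no pairing, since deviations of same-numbered libraries correlated at -0.41, -0.19 and -0.28 over genes, and the block changed no adjusted call. The cause of these shifts was not tested.

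Of 720 log2 fold changes of 48 named members under the alternatives, 56 changed sign, in 20 members, none past the threshold. With B cell scaling the value was -0.0055 for Atp5b, -0.0047 for Atp5c1, -0.045 for Atp5g2, -0.053 for Atp5s, -0.023 for Cox7b, -0.039 for Ndufs1, -0.0073 for Ndufs7, -0.011 for Sdhb, -0.017 for Sdhd, -0.035 for Uqcrb and -0.033 for Uqcrc1. With library size only the value was -0.0065 for Atp5g2, -0.017 for Atp5s and -0.00083 for Ndufs1. With limma-voom the value was 0.00014 for Sdhc. With the neutrophil covariate the value was -0.019 for Atp5c1, -0.012 for Atp5g2, -0.059 for Atp5s, -0.22 for Cox4i2, 0.057 for Cox6b2, -0.010 for Cox7b, -0.045 for Ndufs7, 0.013 for Sdha, -0.014 for Sdhd and -0.0024 for Uqcrc1. With upper-quartile factors the value was -0.0091 for Atp5s. With 1 library left out the values ran from -0.0024 to 0.18 for Atp5a1, -0.041 to 0.13 for Atp5b, -0.038 to 0.18 for Atp5c1, -0.044 to 0.078 for Atp5g2, -0.064 to 0.13 for Atp5s, -0.28 to 0.13 for Cox6a2, -0.0071 to 0.093 for Cox7b, -0.074 to 0.0010 for Ndufab1, -0.019 to 0.061 for Ndufs1, -0.035 to 0.11 for Ndufs7, -0.12 to 0.068 for Ndufv1, -0.024 to 0.012 for Sdha, -0.022 to 0.085 for Sdhb, -0.085 to 0.083 for Sdhc, -0.067 to 0.17 for Sdhd, -0.044 to 0.084 for Uqcrb, -0.030 to 0.087 for Uqcrc1 and -0.085 to 0.090 for Uqcrc2. Depth limited Cox4i2 (8 to 24 reads) and Cox7a1 (20 to 36 reads), whose standard errors exceeded their differences.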

Other observations

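Several genes of the same complexes have symbols that the rule did not take in. Ndufb1-ps, which is named as a pseudogene, had 1130 to 2156 reads per library, and its level was 61.5, 39.8 and 47.4 CPM in Sham replicates 1 to 3 and 50.3, 68.6 and 65.3 CPM in OVX replicates 1 to 3 (log2 fold change 0.31, SE 0.18). Usmg5, a small subunit of complex V, was at 58.7, 41.3 and 43.5 CPM in Sham and 46.1, 61.3 and 63.8 CPM in OVX (0.26, SE 0.17). In both genes OVX replicates 2 and 3 were above the other 4 libraries. Atpif1, which encodes the inhibitor of the ATP synthase, had a log2 fold change of 0.08 (SE 0.10), and Dmac2, a distal assembly factor of the membrane arm of complex I, -0.18 (SE 0.14), with its highest level, 115 CPM, in Sham replicate 2. None was called (adjusted p = 0.811 for Usmg5, Dmac2 and Ndufb1-ps and 0.846 for Atpif1, edgeR's quasi-likelihood test).

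The cytosolic ribosomal protein genes with an unadjusted p-value under 0.05 on the higher side were Rpl38, Rpl39, Rps28 and Rps29. Rps29 was at 276, 254 and 239 CPM in Sham and 265, 367 and 358 CPM in OVX, and Rpl39 at 210, 196 and 186 CPM in Sham and 205, 275 and 267 CPM in OVX. In both of these, OVX replicate 1 lay among the Sham libraries and OVX replicates 2 and 3 were above the other 4 libraries. Ebf1, a transcription factor of early B cells, was at 521, 382 and 454 CPM in Sham and 550, 588 and 595 CPM in OVX (log2 fold change 0.35, unadjusted p = 0.018, edgeR).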
